A study of Mus musculus with 2 samples.

Results

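The Mir34 and Mir449 genes form 1 family of microRNA precursors, taken here as Mir34a, Mir34b, Mir34c, Mir449a, Mir449b and Mir449c. They were picked by gene name with no threshold on their values, although earlier results of these data were known, and all 6 were found among the 1973 microRNA loci of the count tables. The levels come from small-RNA sequencing of facial prominence tissue, the swellings of neural crest mesenchyme and covering epithelium that grow into the face, from healthy B6NCrl mouse embryos at embryonic day 11.5. There was 1 group with 2 libraries: replicate 1 came from a pool of 109 embryos and replicate 2 from a pool of 88, both of mixed sex. The labels name no treatment, mutation or second tissue, so the comparisons are between the genes within a library and between the pools. In a pooled tissue, fewer cells of a type and less RNA per cell cannot be told apart.

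A microRNA is cut from a hairpin precursor as a short strand from its 5′ arm (5p) or its 3′ arm (3p), and pairs with messenger RNAs mainly through bases 2 to 8, its seed. Mir34a is known as a direct target of p53, the tumour suppressor that responds to DNA damage, and represses genes of cell cycle entry and survival. Mir34b and Mir34c are on the list of p53-responsive loci used below as well. The Mir34b and Mir34c pair and the Mir449 cluster are best known from multiciliated epithelium, where they act in the differentiation of cells that bear many motile cilia, and from the testis and the choroid plexus. The tables hold microRNA loci only, so messenger RNA markers of ciliated cells such as Foxj1 were not analysed here, and the levels below do not place the family in a cell type.

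The 5p strands are shown first because they carry the shared seed, printed in capitals.
miR-34a-5p: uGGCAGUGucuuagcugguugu
miR-34b-5p: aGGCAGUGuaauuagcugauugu
miR-449a-5p: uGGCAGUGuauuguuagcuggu
miR-449c-5p: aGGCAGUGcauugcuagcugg

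The 3p strands are shown to contrast with them, again with bases 2 to 8 in capitals.
miR-34a-3p: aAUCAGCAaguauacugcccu
miR-34b-3p: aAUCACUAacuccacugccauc
miR-34c-3p: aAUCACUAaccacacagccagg
miR-449a-3p: cAGCUAACaugcgacugcucuc
miR-449c-3p: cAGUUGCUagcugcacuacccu

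These 9 strands are from RefSeq on GRCm38.p6 and belong to 5 of the 6 genes. miR-34c-5p and the strands of Mir449b are named only and were not part of the sequence comparisons. The 4 printed 5p strands had the seed GGCAGUG, which no other strand among the 1738 mature mouse sequences compared had. The 3p strands did not share 1 seed: miR-34b-3p and miR-34c-3p had AUCACUA in common, and the other 3 had a seed each. Beyond the seed the 4 printed 5p strands diverged. Over a global alignment miR-34a-5p was 82.6% identical to miR-34b-5p and 72.0% identical to miR-449a-5p, and miR-449a-5p was 81.8% identical to miR-449c-5p. miR-34b-5p and miR-449a-5p had the same bases from base 2 to base 10, while miR-449c-5p departed from each of the other 3 after base 8.

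The 6 hairpins lie at 3 places in the genome (GRCm38, the mm10 assembly, positions 1-based). Mir34a lies on chromosome 4 (150068454 to 150068555, plus strand), where it overlaps an exon of the locus Gm37795 on the same strand, 18810 bases from the nearest protein-coding gene, Gpr157. Mir34b (51103562 to 51103645) and Mir34c (51103034 to 51103110) lie on the minus strand of chromosome 9, with 452 bases between them, within an intron of Btg4, a gene on the opposite strand. Mir449c (113035983 to 113036091), Mir449b (113037419 to 113037498) and Mir449a (113037534 to 113037624) lie on the plus strand of chromosome 13 in an intron of Cdc20b, a gene read in the same direction. Mir449b and Mir449a are 36 bases apart. Among the 1894 counted loci that had a position in the gene annotation, no other lay within 10 kb on the same strand of any of the 6.

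How strongly each gene was represented was asked first. Levels are in CPM, sense counts scaled so that all microRNA loci of a library sum to 1000000; replicate 1 had 1941745 such counts and replicate 2 had 2319881. Intervals are exact (Clopper-Pearson) 95% binomial intervals and cover counting error only. A small-RNA read spans a whole mature strand, so CPM was not divided by hairpin length, and counts of a gene take in both its arms. Of the 6 genes, 4 reached at least 10 counts in both libraries, against 17.8% of all 1973 loci; all 6 had at least 1 count in both, against 28.5%.

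Mir34c was the highest in both libraries. It had 3915 counts in replicate 1, or 2016 CPM (1954 to 2080), and 3635 counts in replicate 2, or 1567 CPM (1516 to 1619). Its mean level was 1792 ± 318 CPM (SD, n = 2), which placed it at rank 86 of 708 loci that had any count. Mir449a, the main gene of its cluster here, had 1037 counts in replicate 1, or 534 CPM (502 to 568), and 693 in replicate 2, or 299 CPM (277 to 322). Its mean was 416 ± 166 CPM (rank 145), and both libraries lay below both Mir34c values.

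Mir34a was lower than Mir34c and Mir449a. It had 247 and 258 counts in replicates 1 and 2, or 127 CPM (112 to 144) and 111 CPM (98.1 to 126), with a mean of 119 ± 11.3 CPM (rank 213). Mir34b, the neighbour of Mir34c, had 104 and 145 counts, or 53.6 CPM (43.8 to 64.9) and 62.5 CPM (52.7 to 73.5), with a mean of 58.0 ± 6.32 CPM (rank 249). The intervals of these genes did not overlap in either library. Mir449b had 6 counts in replicate 1 and 1 in replicate 2. Mir449c had 1 and 2 counts. Both thus lay at a few counts, close to the limit of 1.55 CPM in replicate 1 and 1.29 CPM in replicate 2 that a count of 0 would allow (3 counts), and their order relative to each other turned between the libraries.

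**Figure D1:**
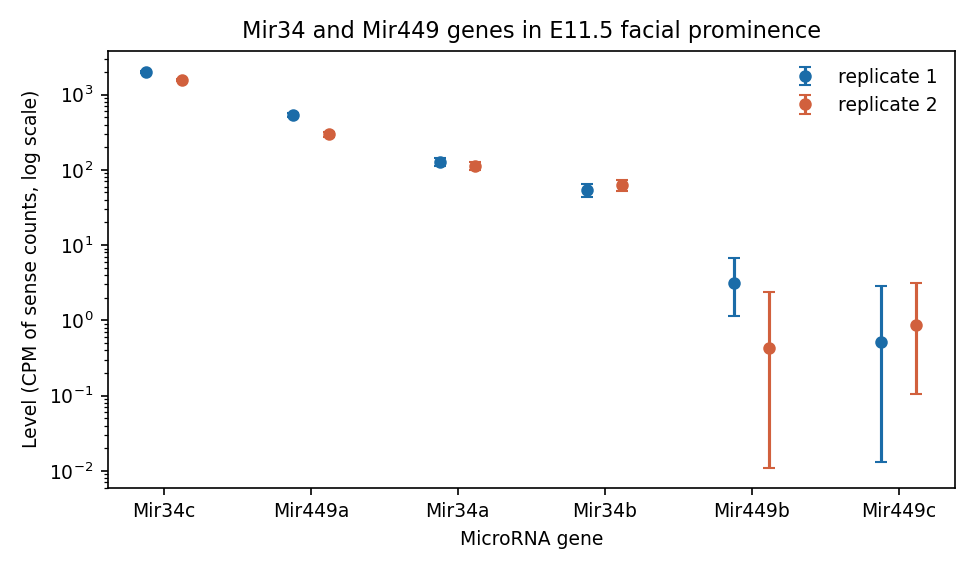
Level of each gene in CPM on a log axis, with replicate 1 in blue and replicate 2 in orange; bars are exact 95% binomial intervals, which cover counting error only. The order Mir34c, Mir449a, Mir34a, Mir34b was the same in both libraries, while the intervals of Mir449b and Mir449c spanned most of their range.

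The order of the 4 genes that averaged 10 counts or more held against the spread between pools. A difference was called larger than that spread when, in each library, it was greater than the log2 change of either gene from pool to pool; 2 libraries allow no exact two-sided test below p = 0.5. By this rule all 6 pairs differed. Mir34c exceeded Mir449a by a log2 ratio of CPM of 1.92 in replicate 1 and 2.39 in replicate 2 (2.15 ± 0.34), and Mir34a by 3.98 and 3.81 (3.90 ± 0.12). Mir449a exceeded Mir34a by 2.07 and 1.42 (1.75 ± 0.46). The closest pair, Mir34a over Mir34b, differed by 1.24 and 0.83 (1.04 ± 0.29). Dividing CPM by hairpin length left all 6 pairs past the rule. Ligation and amplification also differ between sequences, and their part in these differences between genes was not tested.

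Within both clusters 1 hairpin held nearly all counts. Mir34c had 37.6 times the counts of Mir34b in replicate 1 (31.0 to 46.2) and 25.1 times in replicate 2 (21.2 to 29.8), although only 452 bases separate the hairpins. In the Mir449 cluster, Mir449a had 173 times the counts of its immediate neighbour Mir449b in replicate 1 (79.1 to 472). In replicate 2 Mir449b had a single count against 693 for Mir449a, a ratio whose interval ran from 124 to 27411. Mir449c, the first hairpin of the cluster, had 1 count against 1037 in replicate 1 (ratio interval 186 to 40998) and 2 against 693 in replicate 2 (95.6 to 2867). The most abundant hairpin was thus the last along the strand in both clusters.

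**Figure D2:**
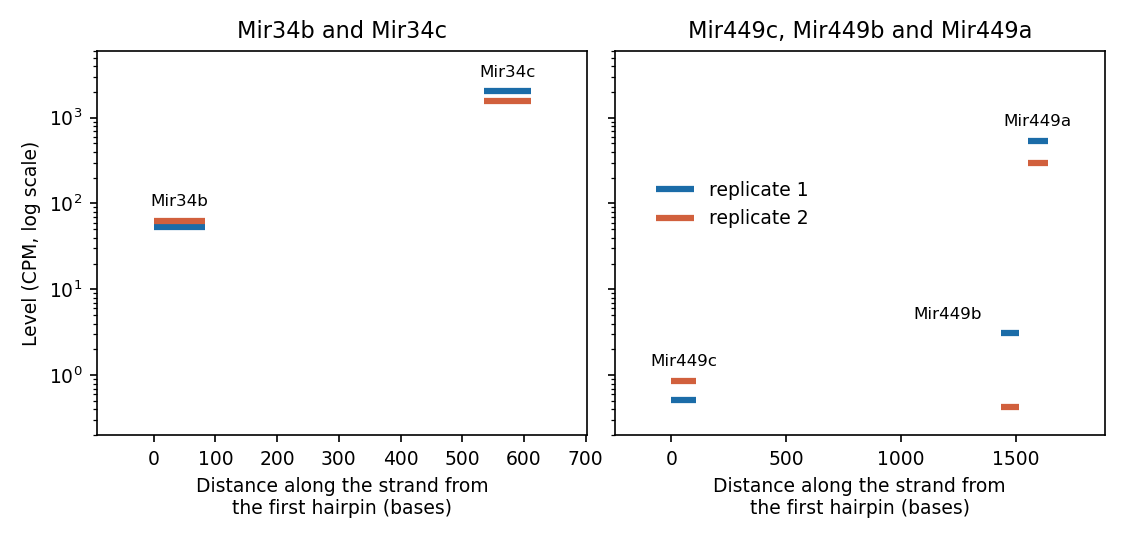
Levels in CPM (log axis) of the hairpins of the Mir34b and Mir34c pair and the Mir449 cluster against the distance in bases along their strand from the first hairpin; each segment spans a hairpin, blue for replicate 1 and orange for replicate 2. Mir34c and Mir449a stand far above their neighbours in both libraries, and no neighbour reached 100 CPM.

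Counts are of reads placed at 1 position, so a hairpin with a near-identical copy is undercounted; reads with several placements made up 22.7% of all reads in replicate 1 and 20.5% in replicate 2. The hairpins of 5 of the genes were therefore compared, on both strands, with the 1005 hairpins of the RefSeq table. The longest run of bases shared with another hairpin was 14, between Mir449a and Mir679, and 11 or 12 for Mir34a, Mir34b, Mir34c and Mir449c. Mir34b and Mir34c shared a run of 11 bases. No run reached the 20 bases set as the limit for a copy. Only unbroken runs were sought, so a near copy with a mismatch inside it could be missed. For example, miR-34b-3p and miR-34c-3p differed at 5 of 22 aligned bases. The 5p strands of this pair were not compared with each other and may be more alike than the 3p strands. Whether reads of Mir34b and Mir34c were placed at the wrong gene of the pair was not tested. Mir449b and the rest of the genome were not compared, and the part of reads with several placements in the low counts was not tested. On the strand opposite to the hairpins, the 6 genes had 0 counts in replicate 1 and 1 count in replicate 2, at Mir34b.

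As a sum the family had 5310 counts in replicate 1 and 4734 in replicate 2, or 2735 CPM (2662 to 2809) and 2041 CPM (1983 to 2100). Mir34c gave 73.7% of the family's counts in replicate 1 (72.5% to 74.9%) and 76.8% in replicate 2 (75.6% to 78.0%). Mir449a gave 19.5% (18.5% to 20.6%) in replicate 1 and 14.6% (13.6% to 15.7%) in replicate 2. Mir34a gave 4.65% (4.10% to 5.25%) and 5.45% (4.82% to 6.14%). Mir34b gave 1.96% (1.60% to 2.37%) and 3.06% (2.59% to 3.59%). The Mir34b and Mir34c pair together made up 77.8% ± 2.94 (SD, n = 2) of the family and the Mir449 cluster 17.2% ± 3.51. The shares of a family sum to a whole, so they do not move alone: the share of Mir34c was higher in replicate 2 while its level there was lower, at 1567 against 2016 CPM.

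The pools were then compared, which measures the spread of each gene within 1 group and not an effect of a condition. Mir449a differed most among the 4 genes, at a log2 ratio of replicate 2 over replicate 1 of -0.84 (95% counting interval -0.98 to -0.70), or 1.79-fold higher in replicate 1. It ranked 6 from the lowest among 257 loci (those averaging 100 counts or more), whose central 90% ran from -0.38 to 0.44. Mir34c had a log2 ratio of -0.36 (-0.43 to -0.30), at rank 15 and inside that range. Mir34a, at -0.19 (-0.45 to 0.06), and Mir34b, at 0.22 (-0.15 to 0.60), had intervals that took in 0. Intervals that leave out 0 were common, at 56.8% of the 257 loci.

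None of the 4 genes passed 2-fold, against 1.95% of the 257 loci. When all reads of the table were the denominator, every log2 ratio moved by -0.26; Mir449a then stood at -1.09, past 2-fold with 4.28% of the 257 loci, and Mir34b at -0.034. With gene totals 3 of the 4 genes were lower in replicate 2, against 49.4% of the 257 loci, and with all reads 4 of 4 were, against 86.4%. The median log2 ratio of the 4 genes was -0.28, beside a median of 0.02 over the 363 loci that averaged 10 counts or more. Members of 1 cluster may share a transcript, so the genes are not independent of each other.

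**Figure D3:**
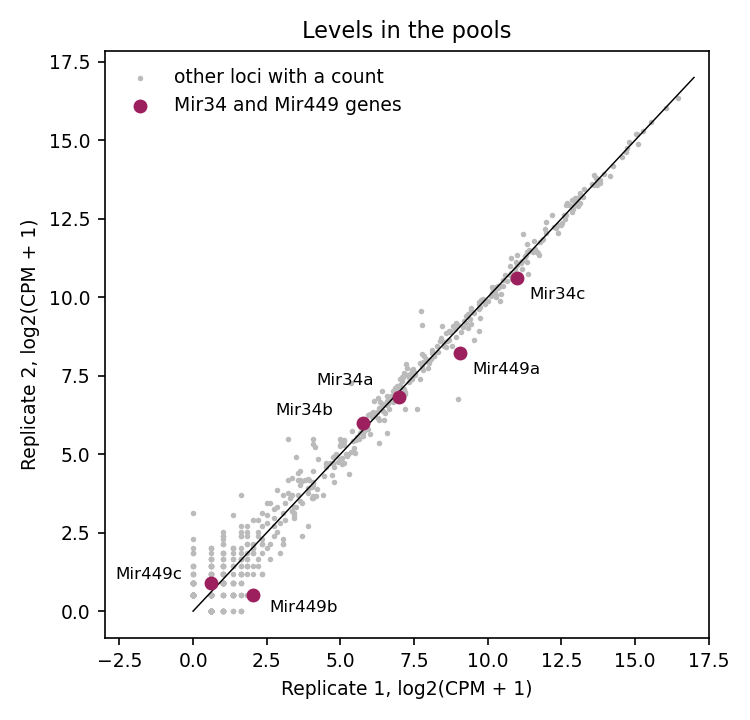
Level of each locus in replicate 2 against replicate 1, as log2(CPM + 1), for 708 loci that had any count; the line marks equal levels and purple points are the Mir34 and Mir449 genes. Mir449a lies below the line by more than Mir34c, and Mir34a and Mir34b lie close to it.

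Loci listed for the tissues and cell types that a dissection could hold were read in the same way. Here too, loci of the same cluster may share a transcript, so the loci of a list are not independent of each other. Among the 363 loci that averaged 10 counts or more, 48.8% were lower in replicate 2, 51.2% were higher and 3.58% were higher by over 2-fold; with all reads as the denominator 78.8% were lower and 21.2% higher. All 7 loci of the epithelium list, to which the Mir200 family and the skin-associated Mir203 and Mir205 belong, reached 10 counts in both libraries, and all 7 were lower in replicate 2 (median log2 ratio -0.28, from -0.40 to -0.04), as they also were with all reads, where most loci were lower. Their summed level was 33088 CPM in replicate 1 and 29540 CPM in replicate 2, more than 10 times that of the Mir34 and Mir449 family in each library. Its leading loci were Mir429, Mir205 and Mir203, at 8239 ± 458, 8049 ± 165 and 6028 ± 381 CPM. The mesenchyme list, with Mir214, Mir143 and Mir140 in the lead, was also detected in full (7 of 7), and 5 of its 7 loci were higher in replicate 2 (median 0.11). With all reads as the denominator 1 of 7 was higher and the median was -0.15.

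All 3 loci of the list for eye and choroid plexus, the secretory epithelium of the brain ventricles, were lower in replicate 2. This held with either denominator, and none was at 0. The list was chosen with earlier results of these data known, so the shared direction of its loci is not an independent finding. Among the 363 loci read above, 48.8% were lower in replicate 2, or 78.8% with all reads. Mir204 stood at 825 CPM in replicate 1 against 483 in replicate 2 (log2 ratio -0.77), Mir211 had 738 and 396 CPM (-0.90), and Mir184 had 512 and 107 CPM (-2.25). Their sum was 2075 CPM in replicate 1 and 986 CPM in replicate 2. Their part in the difference of Mir449a between the pools was not tested.

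Of the 10 measured neural loci, 6 averaged 10 counts or more, and 4 of these were lower in replicate 2 (median -0.16), or 6 of 6 with all reads. Among the 10, Mir9-3 averaged 27.3 CPM and Mir9-2 0.689 CPM. The neural sum was 2615 CPM in replicate 1 and 2137 CPM in replicate 2, led by Mir137, Mir219a-2 and Mir219a-1, while Mir124a-3 was at 0 and Mir124a-1 and Mir124a-2 had at most 9 counts in a library. The striated muscle list went the other way, from 628 to 1494 CPM, with 4 of 5 loci higher in replicate 2 and 3 of them, Mir208a, Mir208b and Mir499, past 2-fold, counts that were the same with all reads. Its loci Mir133a-1 and Mir133a-2 were at 0 in both libraries. With gene totals Mir206 stood at a log2 ratio of 0.62 and Mir133b at -0.005, so not all of the list rose by 2-fold. Numbered genes such as Mir124a-3, Mir133a-1 and, in the list that follows, Mir16-1 have copies with the same mature strand, so their counts are uncertain. The parts of these lists in the ratios of the family were not tested either.

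The p53-responsive list without the 3 Mir34 genes held 9 loci, of which 7 averaged 10 counts or more; 4 were higher and 3 lower in replicate 2, with a median log2 ratio of 0.03, and none passed 2-fold. With all reads 1 was higher and 6 lower (median -0.22). Its most abundant loci were Mir143 at 13677 ± 719 CPM, Mir15a at 7399 ± 326 CPM and Mir16-1 at 2754 ± 101 CPM, all above Mir34c. Mir107 had a log2 ratio of -0.27 and Mir145a one of 0.44. Mir143 and Mir145a are also on the mesenchyme list, so these lists overlap. Mir192, whose product is like those of the Mir34 genes known to be induced by p53, had 96.3 and 98.7 CPM, below Mir34a in each library.

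**Figure D4:**
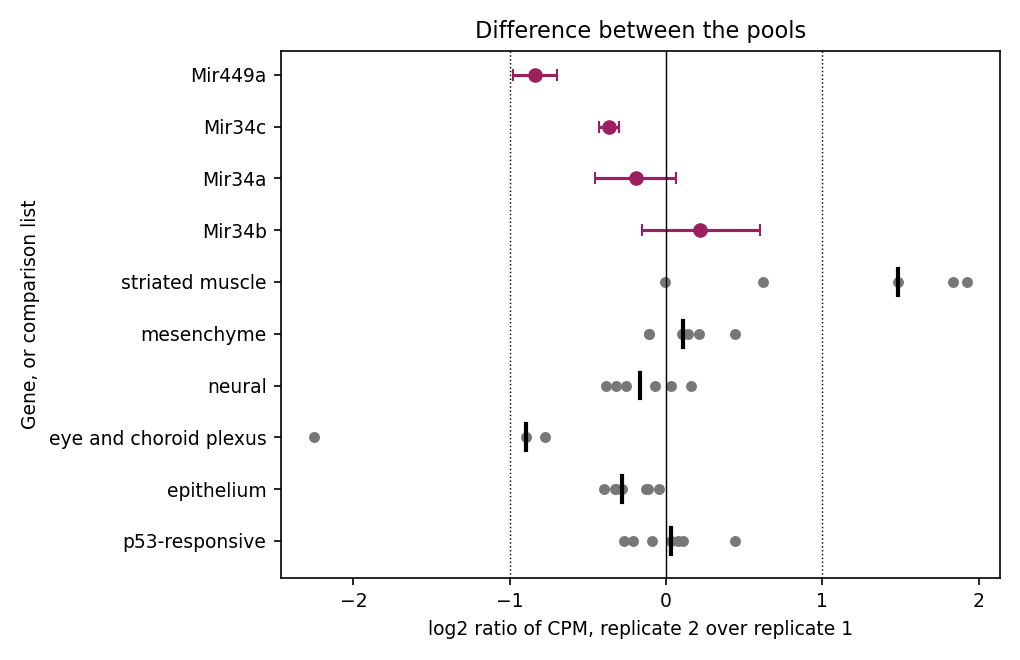
Log2 ratio of CPM, replicate 2 over replicate 1, for the 4 genes (purple, with 95% counting intervals) and for the loci of each comparison list that averaged 10 counts or more (grey points, black bar at the median, the Mir34 genes left out of the p53-responsive list); dotted lines mark 2-fold. Mir449a has the lowest ratio of the 4 genes, and Mir34a and Mir34b have intervals across 0. With all reads as the denominator every ratio moves by -0.26 and Mir34b turns to -0.034.

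Loci most like each gene were found by the distance of log2(CPM + 1) over the 2 libraries, among the same 257 loci; over 2 libraries this measures level and pool ratio only. Nearest to Mir34c were Mir433 (distance 0.15), Mir302a (0.16), Mir302d (0.17), Mir674 (0.25) and Mir467d (0.26). Nearest to Mir34a were Mir29c (0.05), Mir128-1 (0.09), Mir675 (0.10), Mir190a (0.14) and Mir672 (0.17), and nearest to Mir34b were Mir7-2 (0.14), Mir668 (0.16), Mir1955 (0.22), Mir135a-1 (0.25) and Mir146 (0.32). Mir449a had no locus as close as the nearest of the other 3 genes: Mir31 lay at 0.36, followed by Mir669l (0.52), Mir669o (0.53), Mir32 (0.55) and Mir325 (0.58). All 5 of these had a smaller difference between the pools than Mir449a, from -0.33 for Mir31 to -0.02 for Mir325.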

How the data were processed

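Total RNA was sequenced as small RNA (size range under 30 bases in the labels). For each library the authors deposited a table of raw counts at microRNA genes, on mm10 with GENCODE M4 per the file headers beside it; aligner and counter are not given in the sources used here. Sense counts were used and scaled to their total. That total holds no read without a gene: unmapped reads, reads at several positions and reads at no locus were 30.9%, 22.7% and 5.51% in replicate 1, and 38.6%, 20.5% and 6.75% in replicate 2. Symbols and positions came from GENCODE M21 on the same assembly, by which 1894 of 1973 identifiers matched without versions, and sequences from RefSeq. Ratios between pools used 0.5 added counts, with exact conditional binomial intervals. The labels number both pools as biological replicates under 1 donor entry, so the spread between them may be partly technical. Scripts were tested on simulated counts.

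The named loci are the 6 genes, the 3 most abundant loci of each list, the 5 loci most like each gene that averaged 100 counts or more, and any with the same seed or within 10 kb. Loci of the eye, muscle, neural and p53-responsive lists beyond these were named after their values were seen. The genes and lists were chosen with earlier results of these data known. Library factors came from edgeR 4.0.16 and DESeq2 1.42.0 under R 4.3.3; the rest was done with scipy 1.17.1, pandas 2.3.3 and numpy 2.4.6 in Python 3.11.15, and plots with matplotlib 3.10.9.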

Additional observations from a re-analysis of the deposited data

How the results depend on the processing

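With at least 1 count in both libraries in place of 10, all 6 genes were detected instead of 4, and 28.5% of all loci instead of 17.8%. The family's share of counts, 0.239% ± 0.0491 of the gene total, was 0.0907% of all reads in the table, ranged from 0.204% to 0.273% when either replicate was left out, and was 0.231% with counts irrespective of strand. With all reads as the denominator the log2 ratio of Mir34b between the pools turned from 0.22 to -0.034, and the medians of the mesenchyme and p53-responsive lists turned to -0.15 and -0.22. The factors of edgeR and DESeq2 moved every ratio by under 0.01. The number of loci past 2-fold between the pools, 5 with a mean count of at least 100, was 123 at a minimum of 1, 13 at 20 and 3 at 500. All 6 pairs of genes kept to the rule on the replicate difference with counts irrespective of strand, without added counts and, chosen after seeing the data, per hairpin base. Of 89 alternative values other than those of the lists, 1 turned its direction, but levels, ranks, shares and counts among them have no direction to turn. A further 4 alternatives, of the family share and the number of loci past 2-fold, moved by more than the margin set. So did 8 alternatives of levels and log2 ratios. Leaving out a replicate could not move a level, the family share or a difference between genes past its margin. That margin was the SD of the same 2 libraries, which is always larger than such a shift. Depth limits Mir449b and Mir449c, whose levels rest on at most 6 counts. No paired analysis was possible because there is 1 group.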
